A study of Homo sapiens with 6 samples.

Results

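Cytokine receptor genes of the myeloid lineage were examined in HEL cells, a human erythroleukemia cell line, by RNA sequencing. The list holds 10 genes taken by exact symbol: CSF2RB, CSF2RA, IL3RA, IL5RA, CSF3R, IL6R, IL6ST, IL18R1, IL2RG and FLT3. Of these, 8 had a value among the 31999 genes listed. The libraries came from HEL cells transduced with a control hairpin (shCtrl, 3 libraries) or a hairpin against the immune receptor TMIGD2 (shTMIGD2, 3 libraries), each labelled as a biological replicate. Both groups were therefore transduced cells of 1 line, grown in RPMI with serum, and the labels do not say which TMIGD2 hairpin was used. Each gene's level was available as 1 mean over all 6 libraries, in log2 CPM (counts scaled to the total of each library), with no value per library or per group. The receptor genes could thus be compared with each other and with other genes in HEL cells, while a difference between shTMIGD2 and shCtrl was not analysed here. For the same reason the level of TMIGD2, a mean log2 CPM of 4.08 over both groups, does not check the knockdown.

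Most of these receptors are built from a chain that binds 1 cytokine and a chain that several receptors share. CSF2RB, the common beta chain, pairs with IL3RA, CSF2RA or IL5RA to form the receptors for IL-3, GM-CSF and IL-5. IL6ST, also known as gp130, serves IL-6, IL-11, LIF, oncostatin M and IL-27, and IL2RG, the common gamma chain, serves IL-2, IL-4, IL-7, IL-9, IL-15 and IL-21. CSF3R, the G-CSF receptor, works as a homodimer and drives granulocyte production. These chains have no kinase of their own and signal through JAK kinases to STAT factors. FLT3, by contrast, is a receptor tyrosine kinase of early progenitors, and IL18R1 belongs to the IL-1 receptor family, which signals through MYD88.

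The shared chains stood highest. CSF2RB had a mean log2 CPM of 6.68 (103 CPM), above 92.9% of all genes listed. IL6ST followed at 5.92 (60.5 CPM), above 87.8% of the genes, and IL2RG at 4.02 (16.3 CPM), above 75.0%. Among protein-coding genes alone these shares were 86.6% for CSF2RB, 76.8% for IL6ST and 53.6% for IL2RG. IL18R1, the ligand-binding chain for IL-18, had a mean log2 CPM of 3.35 (10.2 CPM). The chains that bind a single cytokine were lower. IL6R, the IL-6 binding chain, had a mean log2 CPM of 0.88 (1.84 CPM), and CSF3R one of -0.37 (0.772 CPM). IL5RA, which marks eosinophils and basophils among mature blood cells, was at -2.76 (0.147 CPM), above 31.8% of the genes, and FLT3 at -2.98 (0.126 CPM), above 28.7%. At a threshold of 1 CPM, 5 of the 8 genes passed (CSF2RB, IL6ST, IL2RG, IL18R1 and IL6R), or 62.5%, compared with 43.8% of all genes listed and 69.1% of the 16341 protein-coding genes among them. The median of the 8 genes was a mean log2 CPM of 2.11, against -0.97 for all genes and 3.64 for the protein-coding genes.

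**Figure D1:**
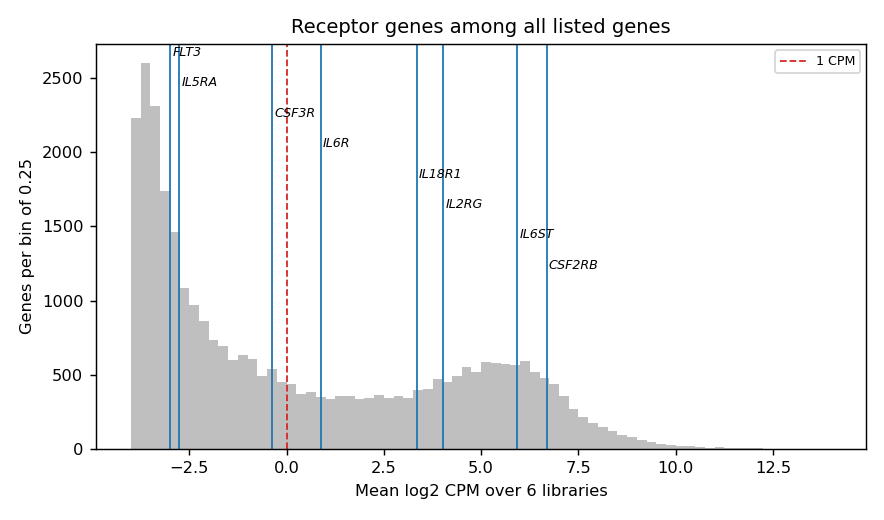
Histogram of the mean log2 CPM over 6 libraries for all 31999 genes listed (grey, genes per bin of 0.25 log2 units), with a blue line for each of the 8 receptor genes and a dashed line at 1 CPM. FLT3, IL5RA and CSF3R lie to the left of the dashed line, and CSF2RB lies at 6.68, in the upper tail.

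The depth behind these means could be read from the lowest levels. The 11429 genes with the lowest levels fell on 20 evenly spaced steps of 0.00526 CPM, and the mean of each step was within 0.00434 of a whole number of steps. If a step is 1 counted fragment in the sum over the 6 libraries, the scale is 190144407 counts in all, or 31690734 per library on average. The lowest step lay 14.0 steps above zero, as it would if an offset had been added to each gene or if genes with fewer counts had been left out. With an offset of 2 counts per library, which is edgeR's usual value in averages of this kind, the lowest step corresponds to 2 counts, fewer than the 3 that an average of 1 count in a group, the filter stated for the DESeq2 test, would need. The sources used here do not state an offset, and the counts that follow rest on this one. Their 95% intervals are exact Poisson intervals and cover counting error only, not the spread between libraries.

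On this scale CSF2RB had 19492 counts over the 6 libraries, or 3249 per library. IL6ST had 11490 counts, IL2RG 3082 and IL18R1 1921. IL6R rested on 337 counts (95% interval 302 to 375) and CSF3R on 135 (113 to 160). IL5RA had 16 counts (9.15 to 26.0) and FLT3 12 (6.20 to 21.0), about 2.67 and 2.00 per library. With no offset these would be 28 and 24 counts. The offset made up 42.9% of the deposited level of IL5RA and 49.9% of that of FLT3, but 8.18% of that of CSF3R and at most 3.44% of the levels of the other 5. The levels of IL5RA and FLT3 lay above the lowest step of the table, but their counting intervals overlapped.

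Levels were next compared per length, because a longer transcript yields more fragments. The length was that of the canonical transcript of each gene in GENCODE 44 on GRCh38. CSF2RB, on the plus strand of chromosome 22 from 36913628 to 36940439 with a canonical transcript of 14 exons and 4853 bases, stood first at 21.1 CPM per kb. IL2RG (chromosome X, 71107404 to 71112108, minus strand) followed at 11.0 CPM per kb over a transcript of 1480 bases. IL6ST (chromosome 5, 55935095 to 55995022, minus strand) had 6.70 CPM per kb over 9027 bases. The order of IL2RG and IL6ST depended on the length used: without a length, or with coding length (14.7 against 22.0 CPM per kb), IL6ST was the higher. IL18R1 (chromosome 2, 102311529 to 102398777, plus strand) had 2.45 CPM per kb.

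The 4 other genes stayed below 1 CPM per kb. IL6R (chromosome 1, 154405193 to 154469450, plus strand) had 0.318 and CSF3R (chromosome 1, 36466043 to 36483278, minus strand) 0.257 CPM per kb. FLT3 (chromosome 13, 28003274 to 28100592, minus strand) was at 0.0330 and IL5RA (chromosome 3, 3066324 to 3126613, minus strand) at 0.0257 CPM per kb. Between neighbours in this order the levels per kb differed 1.92-fold from CSF2RB to IL2RG, 1.64-fold from IL2RG to IL6ST, 2.73-fold from IL6ST to IL18R1 and 7.70-fold from IL18R1 to IL6R. They differed 1.24-fold from IL6R to CSF3R, or 4.25-fold with coding length. From CSF3R to FLT3 they differed 7.77-fold in the deposited levels and 14.3-fold without the offset. With coding length IL18R1 and IL6R differed 4.79-fold, and IL5RA was 2.75-fold above FLT3. With the canonical length and no offset, the counting intervals of IL6R (0.276 to 0.342 CPM per kb) and CSF3R (0.198 to 0.279) overlapped. Those of FLT3 (0.00852 to 0.0288) and IL5RA (0.00838 to 0.0238) also overlapped. Overlap does not show that levels are equal, and the ratio within each pair was not tested against counting error. The intervals of the other neighbours did not overlap. Whether those differences exceed the spread between libraries could not be measured from means.

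**Figure D2:**
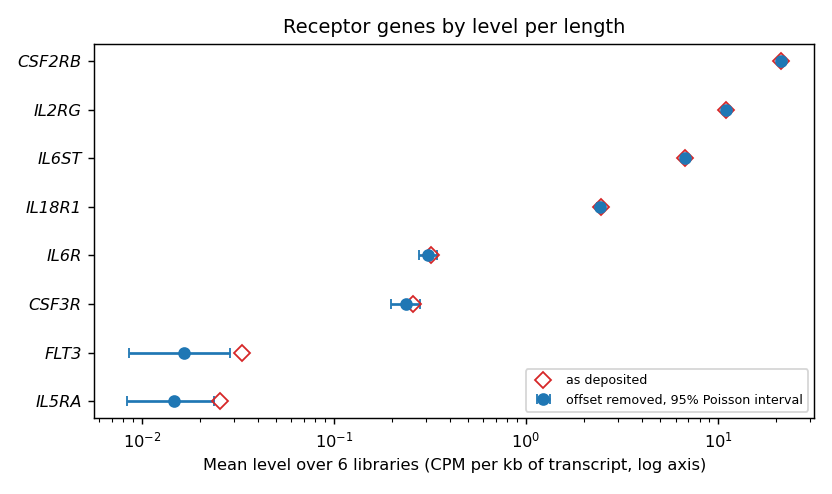
Mean level over 6 libraries of the 8 receptor genes, in CPM per kb of canonical transcript on a log axis. Red diamonds show the deposited level and blue points the level without an offset of 12 counts, with 95% Poisson intervals for counting error only. CSF2RB is highest at 21.1 CPM per kb, and the intervals of FLT3 and IL5RA overlap, as do those of IL6R and CSF3R.

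The alpha chains CSF2RA and IL3RA, which give the common beta chain its specificity for GM-CSF and IL-3, had no row in the table used here. IL3RA encodes CD123, a surface marker of leukemia stem cells. Both genes lie in pseudoautosomal region 1, a stretch that the X and Y chromosomes share, CSF2RA from 1268800 to 1310381 and IL3RA from 1336616 to 1382689 on either chromosome. In GRCh38 the X and Y copies were letter for letter the same, with 0 differences over the 41582 bases of CSF2RA and 0 over the 46074 bases of IL3RA. The windows around their start sites, 250 bases before and 50 after the start in RefSeq (GRCh38.p14, plus strand), are shown as examples of this identity. Most of each window lies before the RefSeq start. The gene starts given above, from GENCODE, lie inside these windows, and by that of IL3RA, 1336616, most of its window lies within the gene. Of the 10 genes, 9 had such a window. The windows of these 2 genes are chrX:1268564-1268863 and chrX:1336535-1336834, and each differed at 0 of 300 bases from its Y copy.
CSF2RA: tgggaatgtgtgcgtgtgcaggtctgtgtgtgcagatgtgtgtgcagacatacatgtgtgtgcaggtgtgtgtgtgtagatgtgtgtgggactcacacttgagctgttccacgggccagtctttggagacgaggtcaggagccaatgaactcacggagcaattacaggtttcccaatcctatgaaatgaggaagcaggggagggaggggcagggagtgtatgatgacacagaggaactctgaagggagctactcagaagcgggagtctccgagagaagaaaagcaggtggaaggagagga
IL3RA: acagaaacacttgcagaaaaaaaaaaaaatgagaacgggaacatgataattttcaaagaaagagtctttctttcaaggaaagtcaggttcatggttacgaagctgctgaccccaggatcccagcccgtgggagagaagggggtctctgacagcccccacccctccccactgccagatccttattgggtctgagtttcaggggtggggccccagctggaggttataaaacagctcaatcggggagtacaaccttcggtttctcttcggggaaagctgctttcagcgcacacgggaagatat

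The lack of a value followed the place of these genes. Of the 18 protein-coding genes with a copy on both X and Y in the pseudoautosomal regions, 1 had a row (5.56%). The share was 71.7% for the 841 other genes of the X chromosome and 82.2% for 19103 autosomal genes. The gene with a row was CD99, at a mean log2 CPM of -2.21. CD99 lies in pseudoautosomal region 1 as well, and whether this value reflects its full level was not tested. SLC25A6, an ADP/ATP carrier used by nearly every cell, was among the 17 without a row. Of the 13 other genes of pseudoautosomal region 1 on the list of its protein-coding genes, 1 had a value, again CD99. IL9R, a cytokine receptor chain that pairs with IL2RG, and CRLF2, which pairs with IL7R, lie in these regions as well and had no row either. The missing rows of CSF2RA and IL3RA are hence no measurement of their level. The part that the handling of fragments with more than 1 match plays in this was not tested.

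**Figure D3:**
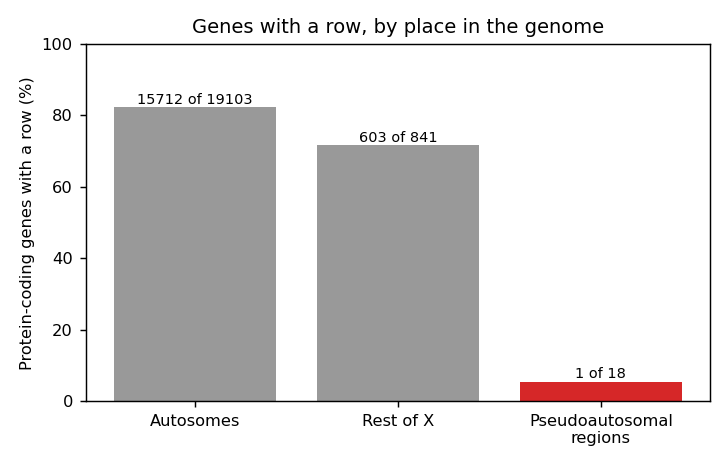
Share of protein-coding genes (GENCODE 44) with a row in the table, in percent, for autosomes, the X chromosome outside the pseudoautosomal regions, and the pseudoautosomal regions, with the numbers of genes above the bars. The share is 82.2% on autosomes, 71.7% on the rest of X and 5.56% in the pseudoautosomal regions that hold CSF2RA and IL3RA.

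Chains that form 1 receptor were set side by side per kb. CSF2RB exceeded IL5RA 824-fold in the deposited levels and 1441-fold without the offset, and 326-fold with coding length, and the value for IL5RA rests on 16 counts. IL6ST exceeded IL6R 21.0-fold. Among the other partners of IL6ST, IL27RA, the IL-27 binding chain, was 4.48-fold higher than IL6ST, at 30.0 CPM per kb. IL11RA, at 2.22 CPM per kb, and the oncostatin M chain OSMR, at 1.20, were 3.02-fold and 5.58-fold below IL6ST. With coding length IL27RA was 2.11-fold above IL6ST, and IL11RA and OSMR were 7.28-fold and 9.72-fold below it. LIFR and CNTFR, the chains for LIF and CNTF, had 4 counts each over the 6 libraries. Of the 6 partners of IL6ST, IL27RA was the 1 above it.

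IL2RG was close to IL4R, the IL-4 binding chain, which was 1.18-fold higher at 12.9 CPM per kb. The other partners of IL2RG with a value were lower than it per kb. Without a length correction IL21R was higher than IL2RG, at 22.4 against 16.3 CPM. IL2RG exceeded IL15RA 1.52-fold, IL21R 2.38-fold, IL2RB 5.45-fold and IL7R 6.97-fold, and IL2RA, the alpha chain that gives the IL-2 receptor its high affinity, had 11 counts. With coding length IL2RG exceeded IL2RB 2.98-fold, IL7R 2.80-fold, IL21R 1.06-fold and IL15RA 1.04-fold. For IL-18 the binding chain was also the higher, as it was for IL-27 and IL-4. IL18R1, the binding chain, exceeded its signalling partner IL18RAP 9.45-fold, or 18.9-fold with coding length, and IL18RAP had a mean log2 CPM of -0.74, below 1 CPM. Of the IL-1 family, IL1RAP, the accessory chain of the IL-1 and IL-33 receptors, was at a mean log2 CPM of 3.22 and IL1RL1, the IL-33 receptor, at 4.43. Together with IL2RA and IL15RA the list of IL-1 family chains had 9 genes with a value of 11, of which 4 reached 1 CPM. After IL1RL1 its highest were SIGIRR (3.65) and IL15RA (3.50), and its lowest IL2RA (-3.05) and IL1R2 (-2.99).

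**Figure D4:**
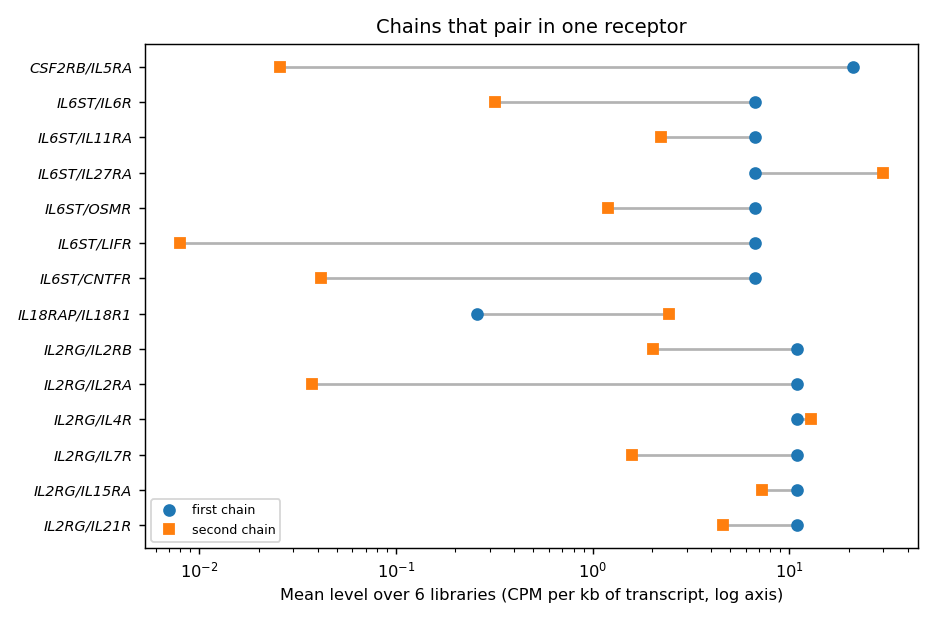
Mean level over 6 libraries, in CPM per kb of canonical transcript on a log axis, of 2 chains that pair in 1 receptor (first-named chain, blue circle; second-named chain, orange square). Pairs with a chain that had no row are left out. CSF2RB lies far above IL5RA, IL6ST lies 21.0-fold above IL6R, and IL27RA and IL4R lie above their shared chains.

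Among 27 class I cytokine receptor chains and related soluble subunits with a value, which include 6 of the genes described here, CSF2RB ranked 4 per kb. Those above it included IL27RA at 30.0 and LEPR at 27.7 CPM per kb, and EPOR, the erythropoietin receptor, was next below at 19.0. IL2RG ranked 7, IL6ST 9, IL6R 19, CSF3R 20 and IL5RA 24. Of the 25 other class I chains 21 had a value, and 16 of these reached 1 CPM. Among the highest by mean log2 CPM were LEPR (7.83) and IL27RA (6.47), and the lowest were PRLR (-3.76) and LIFR (-3.57). FLT3 was the lowest of the class III receptor tyrosine kinases with a value. KIT, the stem cell factor receptor, had 43.8 CPM per kb, PDGFRB 0.518 and CSF1R, the M-CSF receptor, 0.313, compared with 0.0330 for FLT3.

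The genes that encode the ligands were mostly low. Of 22 ligands and inhibitors 18 had a value, and 5 of these reached 1 CPM. LIF had a mean log2 CPM of 4.15, IL7 one of 4.02 and IL18 one of 4.01, and IL18BP, which neutralises IL-18, was at 3.17. IL5 and IL9 were both at -3.76, the lowest step of the table. CSF3, the ligand of CSF3R, was at -0.72, IL6 at -3.11 and FLT3LG, the ligand of FLT3, at -1.99. IL3 and CSF2 had no row.

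Taken by their median and without a length correction, the signalling genes that act below the receptors were higher. Some of them, JAK3, MYD88, TRAF6 and STAT4 included, were below CSF2RB, at 6.68. The 22 kinases, STAT factors and adaptors listed all reached 1 CPM, with a median mean log2 CPM of 7.52, above that of each of the 8 receptor genes. JAK2, the kinase that CSF2RB binds, was at 8.62 and JAK1, which IL6ST uses, at 8.54. JAK3, the kinase of IL2RG, was at 6.30. STAT5A had a mean log2 CPM of 9.08 and STAT3 one of 9.16, next to YWHAZ, an adaptor protein, which was highest at 9.28. STAT4, at 2.22, and TRAF6, at 3.64, were the lowest. MYD88, the adaptor of the IL-18 receptor, was at 5.29. The 17 feedback and shedding genes also reached 1 CPM, with PTPN6 at 8.18, ADAM10, a protease that sheds IL6R, at 8.15, SH2B3 at 7.30, and CISH at 5.83. SOCS1 (2.28) and CBLB (2.99) were the lowest of them. Of 12 known STAT5 and STAT3 targets 10 reached 1 CPM, led by PIM1 (10.04), CCND3 (9.41) and MYC (9.40), whereas BCL6 (-2.48) and GADD45G (-1.59) did not.

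The markers fitted the labelled cell line in part. All 13 erythroid markers reached 1 CPM, with mean log2 CPM from 5.52 (EPOR) to 11.09 (TFRC), and 7 of 8 megakaryocyte markers with a value did, the exception being VWF at -2.71. Of 8 granulocyte or monocyte markers with a value 2 reached 1 CPM, LYZ at 4.40 being the highest, and MPO (-3.32) and ELANE (-3.57) were near the bottom of the table. Of 6 fibroblast or epithelial markers 0 reached 1 CPM, the highest being COL1A1 at -0.80. Of 7 markers of T, B or NK cells with a value 4 reached 1 CPM, led by CD4 at 5.69. HHLA2, the ligand of TMIGD2, was at -3.66, near the lowest level of all genes listed. This mean RNA level does not measure HHLA2 protein. In these bulk libraries fewer cells with a receptor and less RNA per cell cannot be told apart.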

How the data were processed

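HEL RNA was enriched for poly(A) and sequenced from 3 shCtrl and 3 shTMIGD2 libraries, grouped by their labels. The submitters' processing notes and the methods name STAR 2.6.1b on hg38, HTSeq 0.6.1 and DESeq2 3.11, and the notes also name edgeR without a version. The authors deposited 1 table of 31999 genes with 1 log2 CPM per gene over all libraries, called the mean log2 CPM here. Its lowest levels were evenly spaced in CPM, as for the log2 of an average CPM and not for an average of log2 values. The methods give, for the authors' DESeq2 test, that genes had to average 1 count or more in shCtrl or in shTMIGD2. The scaling, offset and filter behind the deposited table are not given in the sources used here. Its other columns hold the authors' own comparison (fold change, F statistic, p-value and adjusted p-value) and were not used. The planned count tests were not run, since the table gives no values per library.

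From the mean log2 CPM, levels in CPM, percentiles, levels per kb and counts implied by the lowest steps (split at gaps over 0.002 CPM) were computed with Python 3.11.15, numpy 2.4.6, pandas 2.3.3 and scipy 1.17.1. Step recovery was tested on simulated data. Lengths and positions came from GENCODE 44 on GRCh38, the assembly of hg38, and not from the annotation behind the counts. The 10 receptor genes, 8 gene lists and 5 marker lists were chosen with earlier results of these data known. Named genes were the receptor genes, their partner chains, TMIGD2, HHLA2 and, from each list, mainly its 3 highest and 2 lowest; JAK1, JAK2, JAK3, MYD88, CSF3, IL6, FLT3LG, IL18BP, CISH, SLC25A6, MPO, ELANE and VWF were added for their roles after their values were seen. One gene that this rule names is not reported here.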

Additional observations from a re-analysis of the deposited data

How the results depend on the processing

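At a threshold of 0.1 CPM, 8 receptor genes passed in place of 5, while 0.5 CPM gave 6, 2 CPM gave 4, and removing the offset of 12 counts, chosen after seeing the data, gave 5. Above the median of all genes stood 6 receptor genes, against 3 for the median of protein-coding genes and 2 for that of genes of at least 1 CPM, whose medians are higher (3.64 and 4.55, against -0.97). Of the 8 places in the order per kb, 4 remained with coding length and 4 with no length correction, since IL6ST then passed IL2RG and IL5RA passed FLT3; all 8 remained with the longest transcript and without the offset.

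The comparison of shTMIGD2 with shCtrl, with DESeq2, other size factors, no filter, each replicate left out and a replicate block as its alternatives, was not run, since the table gives no values per library. No paired analysis was possible because the levels are means over both groups. Depth limits IL5RA and FLT3, with 16 and 12 counts in all.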
